A study of Mus musculus with 36 samples.

Results

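The genes examined encode the subunits of the AMPA and kainate receptors, the fast ion channels opened by glutamate. The members were chosen by name as the 4 AMPA receptor genes (Gria1 to Gria4) and the 5 kainate receptor genes (Grik1 to Grik5), and all 9 were found among the 52636 genes of the count table. Of these, Gria3, Gria4, Grik2, Grik3, Grik4 and Grik5 (6 of 9) had enough counts to be tested, and Gria1, Gria2 and Grik1 did not pass the filter on low counts. In perisynaptic Schwann cells (PSCs), the glia that cap the neuromuscular junction, Grik5, Grik2, Gria3 and Gria4 were the members with the most RNA per kb of exon. Of the 6 members tested, 5 were called higher there than in S100GFP+ cells, as were 22.9% of all genes tested, and 6 were called higher than in NG2DsRed+ cells, as were 20.9%. Grik2, Grik3 and Grik4 passed the filter mainly through their counts in PSCs, so these numbers are in part set by the filter.

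AMPA and kainate receptors are tetramers that let cations into the cell within milliseconds of binding glutamate. AMPA receptors are built from any of the Gria1, Gria2, Gria3 and Gria4 products, and the edited Gria2 product makes the channel nearly impermeable to calcium. Grik1, Grik2 and Grik3 encode kainate receptor subunits that can form channels on their own, whereas the products of Grik4 and Grik5 bind glutamate with high affinity and need one of the others to reach the surface as a channel. In the central nervous system, glia that carry NG2 are known to have AMPA and kainate receptors that respond to neurons. The synapse that PSCs cover in skeletal muscle uses acetylcholine as its transmitter.

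The cells came from mice carrying both the S100β-GFP transgene, in which the S100b promoter drives GFP, and the NG2-dsRed transgene, in which the promoter of Cspg4, the gene of NG2, drives dsRed. All groups therefore shared both transgenes, and a cell was assigned by its fluorescence alone in FACS. The groups were NG2DsRed+/S100GFP+ cells (the PSCs, n = 9 libraries), S100GFP+ cells (n = 8) and NG2DsRed+ cells (n = 10), each from diaphragm, pectoralis and limb muscles without any treatment, and each library came from 1 mouse. The labels give an age that starts at P15 in every library and ends between P21 and P46. That end rose with the library number, and the study's text gives a narrower juvenile span, so the later ages may be an error of the labels and no result here uses them.

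The libraries held 5221655 to 9592875 counts each. A count of 0 allows up to 3 counts, which is 0.237 to 0.710 CPM (counts scaled to a common library size with TMM factors, called CPM here) depending on the library, and covers counting error only. Schwann cell lineage markers (7 genes, among them Sox10, Erbb3 and S100b) summed to between 1400 and 2030 CPM in PSCs, 35.6 and 182 CPM in S100GFP+ cells and 18.8 and 62.5 CPM in NG2DsRed+ cells. Not every marker followed the sum. Ngfr had means of 9.33 CPM in PSCs, 8.40 CPM in S100GFP+ cells and 10.8 CPM in NG2DsRed+ cells. Gfra3 had a higher mean in S100GFP+ cells (2.07 CPM) than in PSCs (1.075 CPM) or NG2DsRed+ cells (0.419 CPM). The S100GFP+ libraries thus had a low sum of the 7 markers for a Schwann cell label, while 6 fibroblast markers summed to between 18300 and 41800 CPM there (703 to 2870 CPM in PSCs) and 6 macrophage and leukocyte markers to between 1090 and 10400 CPM (34.3 to 570 CPM in PSCs). The group is called S100GFP+ cells here for that reason. The myelin genes of the S100GFP+ libraries were not low, with 1540 to 3690 CPM over 8 markers of myelinating Schwann cells against 2550 to 3480 CPM in PSCs. NG2DsRed+ libraries had 7120 to 15600 CPM on 8 markers of pericytes and smooth muscle. They also had 2240 to 19200 CPM on the 6 fibroblast markers and 1240 to 3020 CPM on 6 endothelial markers. NG2DsRed+ library 28 had the highest fibroblast and Schwann lineage sums of its group. Neuron markers summed to at most 4.74 CPM in any PSC library, with Chat, the gene that makes acetylcholine, at 0 counts in all 9, and 4 oligodendrocyte lineage markers summed to at most 4.59 CPM. Of these, Olig2 was at 0 counts in all PSC libraries, Mog had 104 counts in 7 of 9 (mean 1.19 CPM, against 0.174 and 0.0260 in S100GFP+ and NG2DsRed+ cells) and Olig1 had 42 counts in 8 of 9 (mean 0.530 CPM).

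A few libraries stood apart from their groups. PSC library 18 had counts on 14616 genes, against 20203 to 22533 in the other PSC libraries, a median correlation of 0.792 with its own group (0.883 to 0.924 for the others), and the highest summed macrophage (570 CPM) and muscle fibre (1340 CPM) markers of the PSCs. S100GFP+ libraries 14, 17 and 22 had counts on 427, 709 and 1076 of the 1134 olfactory receptor genes, which the other 24 libraries touched in 26 to 197. For the tested members, fold changes are given with and without these libraries where that moved a result, and in part for the members below the filter. Genes beyond the members were refitted only with a single library left out at a time. The joint effect of libraries 14, 17 and 22 on them was not tested. In sorted cells measured in bulk, fewer cells that use a gene and less of its RNA in each cell cannot be told apart.

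The receptor genes are close relatives, and the stretch that lines the ion pore shows it. The lines below show, for each member, 45 bases of the coding strand from GENCODE M21 transcripts (GRCm38), in lower case with the codon of the Q/R site in capitals. This is the codon at which RNA editing can replace the encoded glutamine (Q) by arginine (R), chiefly in Gria2, Grik1 and Grik2, and it decides how readily calcium passes.
Gria1: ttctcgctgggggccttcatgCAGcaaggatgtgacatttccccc
Gria2: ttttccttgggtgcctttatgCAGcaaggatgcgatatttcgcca
Gria3: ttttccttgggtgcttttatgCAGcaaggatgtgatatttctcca
Gria4: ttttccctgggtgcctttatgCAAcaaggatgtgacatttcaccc
Grik1: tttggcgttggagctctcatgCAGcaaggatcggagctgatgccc
Grik2: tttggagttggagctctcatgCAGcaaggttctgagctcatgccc
Grik3: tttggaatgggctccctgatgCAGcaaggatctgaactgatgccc
Grik4: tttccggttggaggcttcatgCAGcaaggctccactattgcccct
Grik5: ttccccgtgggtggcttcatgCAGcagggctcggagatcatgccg
The codon was CAG in 8 of the members and CAA in Gria4. It lies for Gria1 at chr11:57243094-57243096 on the plus strand, in exon 11 of 16; for Gria2 at chr3:80706911-80706913 on the minus strand, in exon 11 of 16; for Gria3 at chrX:41610265-41610267 on the plus strand, in exon 11 of 16; and for Gria4 at chr9:4464137-4464139 on the minus strand, in exon 12 of 17. The kainate codons lie for Grik1 at chr16:87940542-87940544 on the minus strand, in exon 13 of 18, for Grik2 at chr10:49244329-49244331 on the minus strand, in exon 12 of 16, for Grik3 at chr4:125691207-125691209 on the plus strand, in exon 12 of 16, for Grik4 at chr9:42547623-42547625 on the minus strand, in exon 14 of 19, and for Grik5 at chr7:25022497-25022499 on the minus strand, in exon 15 of 20. The printed stretch crosses a boundary between exons in Grik1, Grik2 and Grik3. Gria2 and Gria3 shared 42 of the 45 bases and Grik1 and Grik2 shared 41, while Gria3 and Grik2 shared 28. The deposited values are counts per gene and hold no reading of this codon, so the edited share of any member cannot be given.

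Gria3 and Gria4 carried nearly all of the AMPA receptor RNA of PSCs, except in library 18, where Gria1 held 56.6% of the AMPA signal per kb. Gria3 (chrX:41400854-41678601) ranged from 19.6 to 43.1 CPM in PSCs with a median of 29.8 CPM, from 4.41 to 10.9 CPM in S100GFP+ cells (median 6.63) and from 0.709 to 10.7 CPM in NG2DsRed+ cells (median 3.93). Every PSC library, on 112 to 451 counts each, lay above every library of the other cell types. Gria3 was 4.48-fold higher in PSCs than in S100GFP+ cells (log2 fold change 2.16, SE 0.36, edgeR adjusted p = 1.11e-05) and higher than in NG2DsRed+ cells by 2.75 on the log2 scale (SE 0.34, edgeR adjusted p = 1.06e-07). S100GFP+ and NG2DsRed+ cells overlapped in Gria3, with a log2 fold change of 0.59 (95% interval from the edgeR fit that includes 0, adjusted p = 0.203).

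Gria4 (chr9:4417896-4796234) had the steepest order of the AMPA members across the cell types. It ranged from 6.83 to 26.9 CPM in PSCs (median 16.4), from 1.31 to 8.06 CPM in S100GFP+ cells (median 3.89) and from 0 to 4.41 CPM in NG2DsRed+ cells (median 0.268). Library 18 was the lowest PSC library at 6.83 CPM and the next was at 13.1 CPM, so that 8 of 9 PSC libraries lay above every S100GFP+ library and 9 of 9 above every NG2DsRed+ library. The log2 fold changes were 2.03 (SE 0.54, edgeR adjusted p = 0.00267) against S100GFP+ cells and 4.54 (SE 0.58, adjusted p = 1.66e-07) against NG2DsRed+ cells. Gria4 was also higher in S100GFP+ than in NG2DsRed+ cells, by 2.50 on the log2 scale (SE 0.57, edgeR adjusted p = 0.000929). NG2DsRed+ library 28 held 29 of the 48 Gria4 counts of its group, and without it the edgeR values were 5.77 for PSCs and 3.69 for S100GFP+ cells against NG2DsRed+ cells.

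Gria1 and Gria2, the most studied AMPA receptor genes of principal neurons, were scarce. Gria2 (chr3:80681450-80802835) had between 2 and 24 counts in each PSC library, from 0.313 to 2.42 CPM with a median of 1.14 CPM. In S100GFP+ cells it ranged from 0 to 3.62 CPM (median 0.232), with library 22 the highest and library 17 next at 1.89 CPM, and it was at 0 counts in 6 of 10 NG2DsRed+ libraries. Gria1 (chr11:57011387-57330244) was at or under 1.91 CPM in 8 of 9 PSC libraries, with a median of 0.157 CPM. Library 18 alone held 143 of the 175 Gria1 counts in PSCs, at 25.1 CPM, so that the PSC mean of 3.15 CPM fell to 0.414 CPM without it. The S100GFP+ and NG2DsRed+ libraries had at most 2.80 and 1.17 CPM of Gria1. Fitted without the filter on low counts, Gria2 differed by 0.75 (SE 0.81, edgeR adjusted p = 0.466) between PSCs and S100GFP+ cells and by 2.68 (adjusted p = 0.0182) between PSCs and NG2DsRed+ cells. The same unfiltered fit gave Gria1 log2 fold changes of 2.43 (edgeR adjusted p = 0.0536) and 2.78 (adjusted p = 0.0326), and without library 18 these became -0.30 (adjusted p = 0.827) and 0.04 (adjusted p = 1). Without S100GFP+ libraries 14, 17 and 22, Gria2 was higher in PSCs than in S100GFP+ cells (3.27, edgeR adjusted p = 0.0242).

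**Figure D1:**
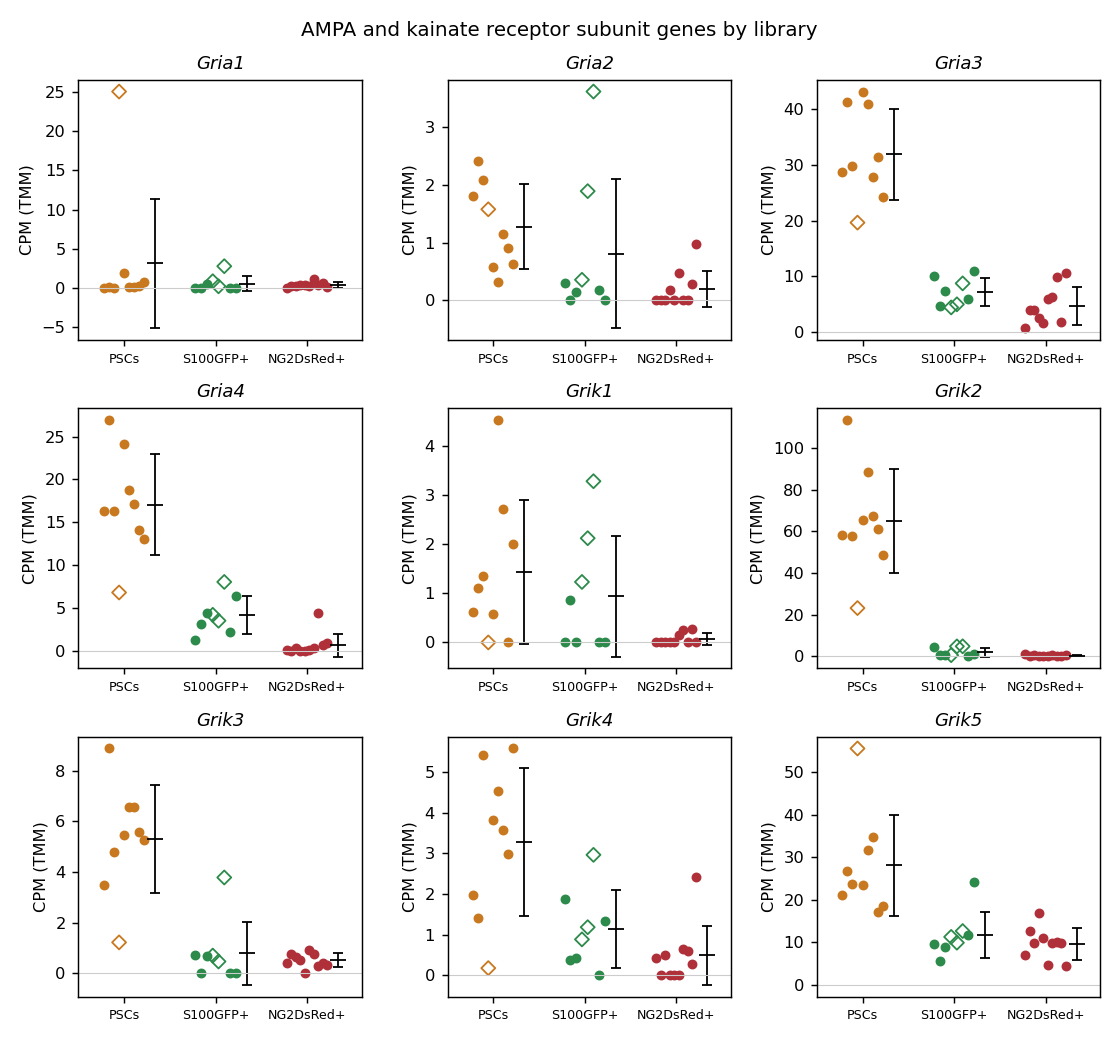
Level of each of the 9 subunit genes (CPM after TMM scaling, linear axes that differ between panels) in the 9 PSC, 8 S100GFP+ and 10 NG2DsRed+ libraries. Each point is a library, open diamonds are PSC library 18 and S100GFP+ libraries 14, 17 and 22, and black bars are mean ± SD. Grik2 and Gria3 separate PSCs from both other cell types, while the high point of Gria1 at 25.1 CPM is library 18.

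Among the kainate receptor genes, Grik2 separated PSCs most widely from the other cells. Grik2 (chr10:49094833-49788766) encodes GluK2, a subunit that forms channels on its own. It ranged from 23.1 to 113.4 CPM in PSCs (median 61.2, 132 to 1125 counts), from 0 to 4.77 CPM in S100GFP+ cells (median 0.820) and from 0 to 0.993 CPM in NG2DsRed+ cells (median 0.242). Again all 9 PSC libraries lay above all libraries of both other cell types, although library 18 was the lowest of them at 23.1 CPM and the next was at 48.4 CPM. Grik2 was 32.6-fold higher in PSCs than in S100GFP+ cells (log2 fold change 5.03, SE 0.55, edgeR adjusted p = 9.47e-09). Against NG2DsRed+ cells the log2 fold change was 7.50 (SE 0.59, edgeR adjusted p = 1.84e-11). Without S100GFP+ libraries 14, 17 and 22 the first of these values was 5.75, and limma-voom with sample quality weights gave 6.41.

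Grik2 was also higher in S100GFP+ than in NG2DsRed+ cells (log2 fold change 2.47, SE 0.63, edgeR adjusted p = 0.00291), but the call rested on few counts. S100GFP+ libraries 1, 17 and 22 held 29, 20 and 29 of the 92 Grik2 counts of their group, and the other 5 had 0 to 5 counts each. Without libraries 14, 17 and 22 the value was 1.78 (edgeR adjusted p = 0.0458), and limma-voom gave 1.61 (adjusted p = 0.0901).

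Grik3 and Grik1 encode the other subunits that form channels alone, and both were below Grik2 in PSCs (0.592 and 0.214 CPM per kb of exon against 4.90). Grik3 (chr4:125490700-125714173) ranged from 1.23 to 8.87 CPM in PSCs (median 5.45), from 0 to 3.79 CPM in S100GFP+ cells (median 0.583) and from 0 to 0.927 CPM in NG2DsRed+ cells (median 0.480). PSC library 18 was the lowest of its group and S100GFP+ library 22 the highest of its own, so 7 of 9 PSC libraries lay above every S100GFP+ library, and 9 of 9 above every NG2DsRed+ library. The log2 fold changes of Grik3 in PSCs were 2.70 (SE 0.62, edgeR adjusted p = 0.000688) and 3.32 (SE 0.59, adjusted p = 3.27e-05), and the first was 3.76 without library 22 and 4.13 without libraries 14, 17 and 22. Between S100GFP+ and NG2DsRed+ cells Grik3 differed by 0.62 (SE 0.63, edgeR adjusted p = 0.500), and the sign turned without library 22 (-0.45, adjusted p = 0.616).

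Grik1 (chr16:87895900-88290265) varied widely even within PSCs. It had 0 counts in PSC libraries 18 and 34 and 29 counts (4.54 CPM) in library 23, with a median of 1.11 CPM. S100GFP+ cells ranged from 0 to 3.29 CPM and had no counts in 4 of 8 libraries, and the 10 NG2DsRed+ libraries held 5 counts together. In the fit without the filter the log2 fold changes were 0.67 (edgeR adjusted p = 0.550) against S100GFP+ cells, 3.99 (adjusted p = 0.00193) against NG2DsRed+ cells, and 3.32 (adjusted p = 0.0153) for S100GFP+ against NG2DsRed+ cells. Of the 43 Grik1 counts in S100GFP+ cells, libraries 14, 17 and 22 held 7, 9 and 20. Without them the values were 2.84 (edgeR adjusted p = 0.0726), 4.03 (adjusted p = 0.00149) and 1.19 (adjusted p = 0.534), and without library 22 alone the last was 2.68 (adjusted p = 0.0670).

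Of the high-affinity subunits, Grik5 was well covered in every cell type and Grik4 was not. Grik5 (chr7:25009849-25072346, encoding GluK5) ranged from 17.1 to 55.5 CPM in PSCs (median 23.7), from 5.75 to 24.2 CPM in S100GFP+ cells (median 10.6) and from 4.53 to 16.9 CPM in NG2DsRed+ cells (median 9.77). S100GFP+ library 33, at 24.2 CPM, reached into the PSC range, and 4 of 9 PSC libraries lay above it, while no NG2DsRed+ library reached the lowest PSC library. The log2 fold changes were the smallest of the members tested, at 1.26 (SE 0.28, edgeR adjusted p = 0.000419) and 1.54 (SE 0.26, adjusted p = 1.49e-05). Grik5 differed by 0.28 (SE 0.27, edgeR adjusted p = 0.462) between S100GFP+ and NG2DsRed+ cells.

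Grik4 (chr9:42518135-42944493, encoding GluK4) ranged from 0.175 to 5.58 CPM in PSCs (median 3.58), from 0 to 2.96 CPM in S100GFP+ cells (median 1.03) and from 0 to 2.43 CPM in NG2DsRed+ cells (median 0.354). The lowest PSC library was again 18, with a single count, and the highest of the other groups were S100GFP+ library 22 and NG2DsRed+ library 35. Grik4 was higher in PSCs than in NG2DsRed+ cells (log2 fold change 2.69, SE 0.68, edgeR adjusted p = 0.00169, and 3.52 without NG2DsRed+ library 35). Against S100GFP+ cells its value of 1.53 (SE 0.69, 95% interval 0.12 to 2.94) did not pass the threshold (edgeR adjusted p = 0.0688). It passed without PSC library 18 (1.74, edgeR adjusted p = 0.0263), without S100GFP+ library 22 (1.91, adjusted p = 0.0343) and without NG2DsRed+ library 35 (1.58, adjusted p = 0.0415). Grik4 differed by 1.16 (SE 0.71, edgeR adjusted p = 0.226) between S100GFP+ and NG2DsRed+ cells, and without NG2DsRed+ library 35 this became 1.94 (adjusted p = 0.0336).

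**Figure D2:**
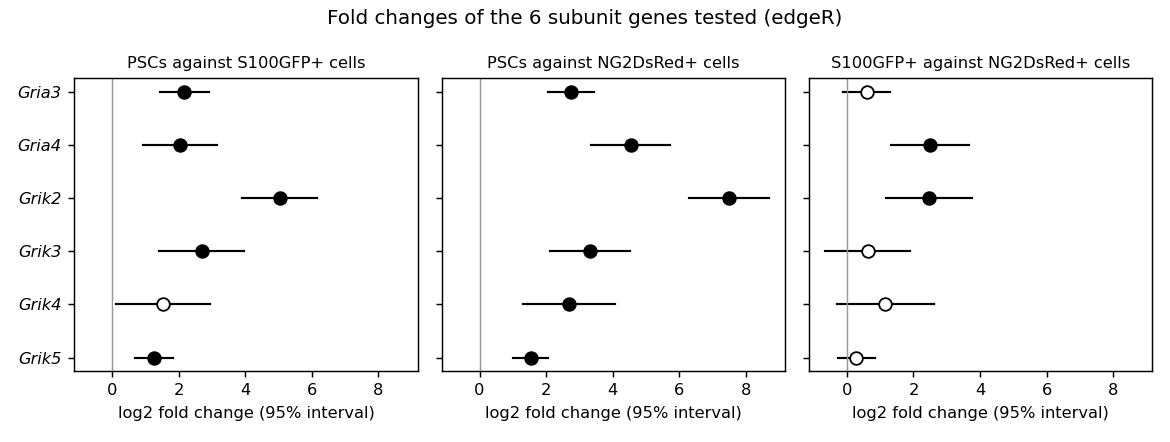
Log2 fold changes of the 6 members that passed the filter, from the edgeR fit of all 27 libraries, in the comparisons of PSCs with S100GFP+ cells, of PSCs with NG2DsRed+ cells and of S100GFP+ with NG2DsRed+ cells. Points are estimates, lines are 95% intervals, and filled points have an adjusted p under 0.05. Every point against NG2DsRed+ cells is filled in the middle panel, Grik4 (1.53) is the open point on the left, and Gria4 and Grik2 are the filled points on the right.

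As a list, the tested members were mostly called higher in PSCs. Against S100GFP+ cells 5 of 6 were called by edgeR, where 22.9% of all 15330 genes tested were, and in 2 of 6 (Gria3 and Grik2) no library overlapped, against 5.24% of all genes. Against NG2DsRed+ cells 6 of 6 were called higher (20.9% of all genes), and 5 of 6 did not overlap (5.08% of all genes). Gria3, Gria4, Grik2, Grik3 and Grik5 were called higher than both, as were 13.9% of all genes. The median log2 fold change of the tested members was 2.10 against S100GFP+ cells and 3.03 against NG2DsRed+ cells, beside 0.04 and 0.02 over all genes. These comparisons share the PSC libraries. Grik2, Grik3 and Grik4 passed the filter mainly through PSCs, with median counts of 554, 46 and 25 there and at most 5 in either other cell type. The counts of tested members called higher in PSCs, and these medians, are therefore in part set by the filter. Between S100GFP+ and NG2DsRed+ cells edgeR called 2 of 6 higher, where 18.1% of all genes were called higher and 15.2% lower. The fitted value was above 0 in all 6, with a median of 0.89 beside -0.02. Library 22 was the highest S100GFP+ library for 7 of the 9 members, and without it Grik3 turned to -0.45.

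Without the filter, where all 9 members could be fitted, edgeR called 5 of 9 higher in PSCs than in S100GFP+ cells (8.74% of 44705 genes), 9 of 9 higher than in NG2DsRed+ cells (8.39%) and 3 of 9 higher in S100GFP+ than in NG2DsRed+ cells (18.3%). The added calls were Gria1, Gria2 and Grik1 against NG2DsRed+ cells and Grik1 between the latter groups. Gria1 was no longer called without library 18, which left 8 of 9 against NG2DsRed+ cells and, with Grik4, 6 of 9 against S100GFP+ cells. Without libraries 14, 17 and 22 Grik1 was no longer called between S100GFP+ and NG2DsRed+ cells, which left 2 of 9, and 7 of 9 members were called higher in PSCs than in S100GFP+ cells. These 7 include Gria1 (4.46, edgeR adjusted p = 0.0214). Without library 18 as well, Gria1 was not called (1.78, edgeR adjusted p = 0.262), and 8 of 9 members were. The sum of Schwann lineage markers given above, though not every marker in it, moved in the same direction as the members between PSCs and the other cells. Its part in the members' differences was not tested.

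Levels of different genes were compared per kb of exon. In PSCs the mean of Grik5 was 5.43 CPM per kb (SD 2.28), that of Grik2 was 4.90 (SD 1.89), that of Gria3 was 3.23 (SD 0.83) and that of Gria4 was 2.71 (SD 0.938). Neighbours in this order differed by less than 1 SD, except that Gria3 lay below Grik2 by slightly less than the SD of Grik2 and by more than its own. A wide gap followed, with Grik3 at 0.592, Grik4 at 0.549, Gria1 at 0.522, Grik1 at 0.214 and Gria2 at 0.0819 CPM per kb. Without library 18 Gria1 came last, at 0.0684 CPM per kb, and Grik2 (5.29) came before Grik5 (4.76), with Gria3 (3.39) and Gria4 (2.91) after them. With the longest transcript as the length, the same members led (Grik5 at 6.91, Grik2 at 6.88, Gria3 at 6.13 and Gria4 at 3.14 CPM per kb). In S100GFP+ and NG2DsRed+ cells Grik5 came first, at 2.27 and 1.86 CPM per kb, followed by Gria3 at 0.721 and 0.478.

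The makeup of the receptor RNA differed between cell types. Of the kainate receptor signal per kb, Grik2 held 42.0% ± 12.1 (SD, n = 9) in PSCs, 5.05% ± 5.23 (n = 8) in S100GFP+ cells and 1.59% ± 1.79 (n = 10) in NG2DsRed+ cells. The lowest PSC library (13.8%) lay above the highest S100GFP+ library (12.5%), and 2-sided exact permutation tests gave p = 8.2e-05 and 2.2e-05, the smallest these designs allow (adjusted p = 0.00022 and 0.00017). Grik5 held 46.1% ± 15.2 (n = 9) in PSCs, 81.1% ± 14.2 (n = 8) in S100GFP+ cells and 89.5% ± 10.3 (n = 10) in NG2DsRed+ cells, with p = 0.00099 and 4.3e-05 by the same exact tests (adjusted p = 0.0013 and 0.00017). PSC library 18, at 84.9% Grik5, lay among the other cell types. Shares of a family have a fixed sum, so the smaller Grik5 share cannot be read apart from the larger Grik2 share. Grik5 RNA itself did not fall in PSCs, with edgeR log2 fold changes of 1.26 against S100GFP+ cells and 1.54 against NG2DsRed+ cells. Of the AMPA receptor signal, Gria3 held 49.9% ± 9.07 (n = 9) and Gria4 41.6% ± 10.4 in PSCs, and Gria2 held 1.28% ± 0.703. S100GFP+ cells had 49.9% ± 16.2 (n = 8) Gria3 and 42.7% ± 11.5 Gria4, differences from PSCs of 0.0308 and -1.04 percentage points that the exact permutation test did not call (p = 1 and 0.77, adjusted p = 1 and 0.88). In NG2DsRed+ cells Gria3 held 73.3% ± 13.8 (n = 10) and Gria4 12.3% ± 13.4, and both differed from PSCs (exact permutation tests, p = 0.00084 and 0.00041, adjusted p = 0.0013 and 0.00082). The AMPA shares of NG2DsRed+ cells rest on few counts, with 5 to 66 counts of Gria3 and 0 to 29 of Gria4 (median 2) in a library. In NG2DsRed+ library 2 a single Gria4 count made a share of 23.8%. The split between Gria3 and Gria4 also depends on the length used. With the longest transcript as the length, Gria3 held 61.6% and Gria4 31.4% in PSCs, and 60.7% and 32.9% in S100GFP+ cells. The permutation tests of shares were 8, chosen after the values had been seen and adjusted together. Because of the fixed sum, the tests of Grik2 and Grik5 are not independent results, and neither are those of Gria3 and Gria4.

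**Figure D3:**
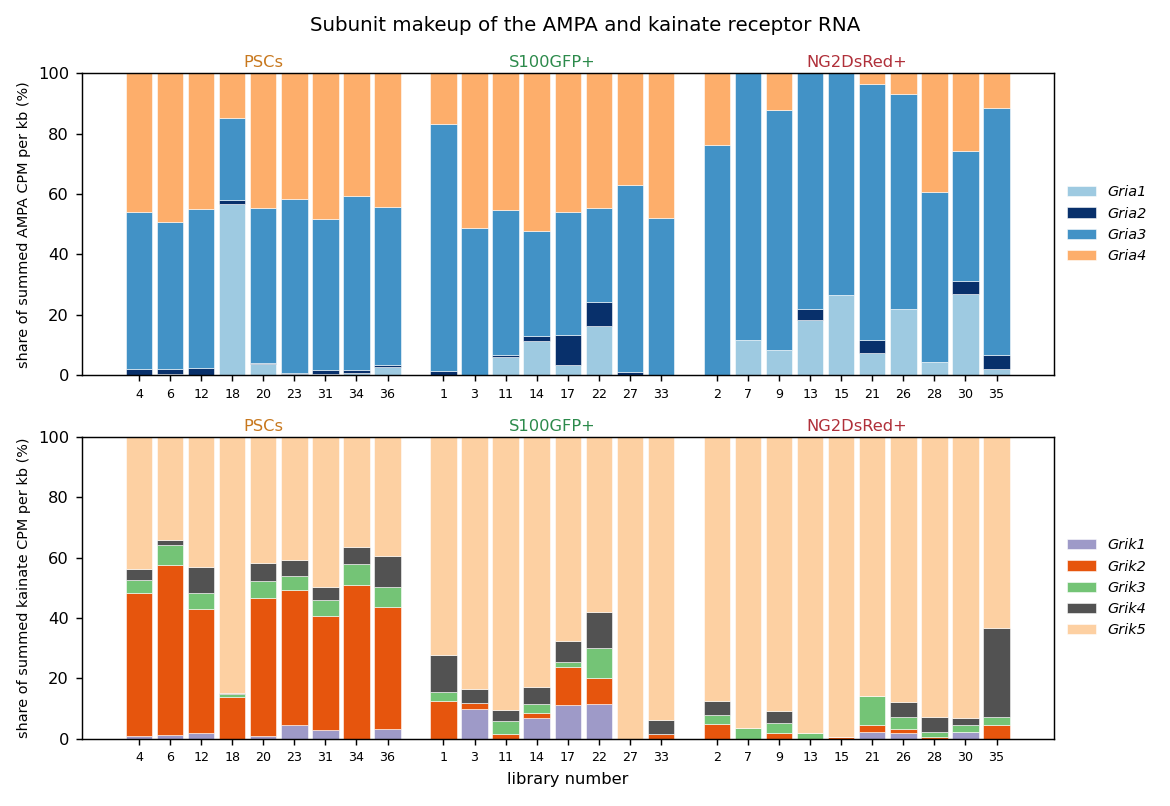
Share of each subunit gene in the summed AMPA (top) and kainate (bottom) CPM per kb of exon, in percent, for each of the 27 libraries by library number. Grik2 makes up 13.8% to 56.5% of the kainate bar in PSCs and at most 12.5% elsewhere. PSC library 18 differs from the other PSC libraries in both panels, with 56.6% Gria1 and 84.9% Grik5.

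Some pairs of members varied together among the PSC libraries, and part of that came from library 18. On the log2(CPM + 1) scale over 9 libraries, Pearson's r was 0.93 for Gria4 with Grik2, 0.93 for Grik2 with Grik3 and 0.91 for Gria3 with Gria4. Without library 18 these were 0.79, 0.79 and 0.86 over 8 libraries, while Gria4 with Grik3 fell from 0.86 to 0.56 and Gria3 with Grik3 from 0.75 to 0.50. Grik5 ran the other way with r of -0.33 to -0.63 against the other tested members, but 4 of these 5 coefficients turned positive without library 18 (0.35 with Gria3, 0.49 with Gria4, 0.59 with Grik2 and 0.51 with Grik3). The correlation of Grik4 with Grik2 went from 0.45 to -0.56, and without library 18 Grik4 was negative with every other tested member (-0.02 to -0.56). These libraries share their normalization, and the coefficients are descriptions over few points. Library 18 was the lowest PSC library for 5 of the 6 members tested and the highest for the other, Grik5. Leaving it out raised the PSC mean of Grik2 from 64.9 to 70.1 CPM and lowered that of Grik5 from 28.1 to 24.6 CPM.

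**Figure D4:**
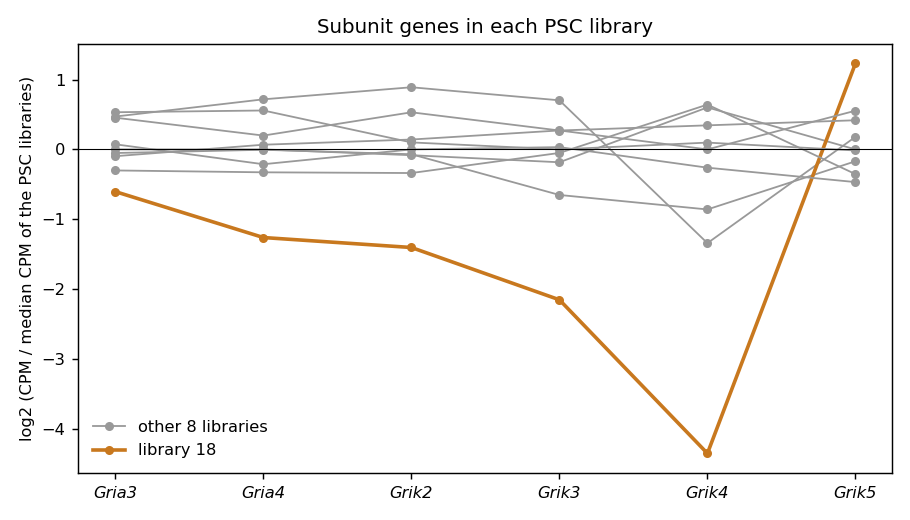
Level of the 6 tested members in each of the 9 PSC libraries, as the log2 ratio to the median of the PSC libraries. Each line is a library and the thick orange line is library 18, which lies at -1.40 in Grik2, -4.35 in Grik4 and 1.23 in Grik5.

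For each tested member, the genes with the most similar pattern over all 27 libraries were found by Pearson's r on log2 CPM. Mmp16 (0.969), Kif21a (0.941) and Col16a1 (0.933) were most like Gria3. Pcdh9 (0.942), Sfrp1 (0.937) and Armh4 (0.933) were most like Gria4. Grik2 was followed most closely by Gm44439 (0.972), Gpr37l1 (0.966) and Bche (0.964), the last of which encodes butyrylcholinesterase. For Grik3 they were Gm37725 (0.914), Anks1b (0.905) and Cdh10 (0.903). Grik4 had the lowest leading coefficients, with Epha5 (0.844), Scd2 (0.824) and Mfap3l (0.818), and Grik5 had Nacc2 (0.882), Gm11816 (0.878) and Zfp219 (0.875). With Spearman's coefficient Mmp16 and Epha5 still led for Gria3 and Grik4, and other genes led for the rest. The points of these correlations share 3 cell types, so that any gene higher in PSCs scores well.

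AMPA and kainate receptors work with accessory proteins that shape their opening and carry them to the surface. Of 13 AMPA receptor auxiliary subunits, Cacng5, a TARP (transmembrane AMPA receptor regulatory protein), was the only one that passed the filter. It ranged from 6.23 to 22.6 CPM in PSCs (median 15.3), and its highest value was 1.48 CPM in S100GFP+ cells and 3.03 CPM in NG2DsRed+ cells. Every PSC library lay above all others, with log2 fold changes of 4.69 (SE 0.70, edgeR adjusted p = 2.13e-06) and 3.79 (adjusted p = 4.98e-06). In the fit without the filter, which took in 12 of the 13, edgeR called 1 higher and 4 lower in PSCs than in S100GFP+ cells and 1 higher and 1 lower than in NG2DsRed+ cells. Of all 44705 genes in that fit, 8.74% and 8.39% were called higher in these comparisons. The shares called lower are not given here, so the lower counts have no background to be read against. Among the 12, S100GFP+ library 17 or 22 was highest for Cacng2, Cacng3, Cacng5, Cacng7, Cnih3, Gsg1l, Shisa6 and Shisa7. Library 33 was highest for Cacng4, Cnih2, Shisa8 and Shisa9. Of the kainate receptor auxiliary and binding genes 1 of 4 passed, Neto2, whose product binds kainate receptors and slows their closing. Neto2 ranged from 17.4 to 38.1 CPM in PSCs, from 1.39 to 5.99 CPM in S100GFP+ cells and from 2.01 to 6.76 CPM in NG2DsRed+ cells, with log2 fold changes of 3.11 (SE 0.27, edgeR adjusted p = 6.71e-11) and 2.80 (SE 0.24, adjusted p = 7.73e-11).

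The genes of proteins that assemble and anchor AMPA receptors held calls in either direction. Of 12 biogenesis and assembly genes 8 were tested, and 3 were higher and 2 lower in PSCs than in S100GFP+ cells, and 3 higher and 1 lower than in NG2DsRed+ cells (of all genes, 22.9% were called higher and 24.1% lower in the first comparison, and 20.9% and 23.1% in the second). Of the 3 higher than in S100GFP+ cells, 2 are outside the rule for named genes. Olfm2 (1.30, edgeR adjusted p = 0.0499) lost its call on leaving out any of 17 of the 27 libraries. Porcn (1.49, edgeR adjusted p = 0.00239) fell to 0.82 without PSC library 18 and stayed called. Prrt1 (SynDIG4), an AMPA receptor binding membrane protein, was higher by 4.80 and 3.24 on the log2 scale (edgeR adjusted p = 9.88e-11 and 5.43e-09). Olfm1 was lower in PSCs than in S100GFP+ cells (-1.66, edgeR adjusted p = 5.96e-05). Abhd12 was lower than in S100GFP+ cells (-0.57, adjusted p = 0.0115) and higher than in NG2DsRed+ cells (0.76, adjusted p = 0.000646), and Sacm1l was lower than in the latter (-0.56, edgeR adjusted p = 0.0443), a call that was lost on leaving out any of 15 of the 27 libraries. Of 10 scaffold and trafficking genes 8 were tested, and 2 were higher and 2 lower than in S100GFP+ cells, and 1 higher and 5 lower than in NG2DsRed+ cells. Pick1, a PDZ protein that binds AMPA receptor tails, was higher than in both (1.57 and 0.99, edgeR adjusted p = 3.33e-06 and 0.000459). Nsf was lower than in both (-0.66 and -0.34, adjusted p = 0.000298 and 0.0406), while Dlg1 and Grasp were lower than in NG2DsRed+ cells (-0.56 and -1.04, adjusted p = 0.0158 and 0.000679). The call of Nsf against NG2DsRed+ cells was lost on leaving out any of 14 libraries, and that of Dlg1 on leaving out any of 3 (2, 20 or 36). Outside the rule for named genes, and named after their values were seen, the scaffold genes with the largest falls were Epb41l1 (-2.71 and -3.62, edgeR adjusted p = 1.72e-11 and 4.96e-14, no overlap with either group) and Grip2 (-3.87 against NG2DsRed+ cells, adjusted p = 7.19e-06, and -4.57 without library 18). The neuronal pentraxins, secreted or membrane-bound proteins that cluster AMPA receptors, had 2 of 3 higher than in S100GFP+ cells and 2 of 3 higher than in NG2DsRed+ cells. Nptx1 (2.03 and 3.09) and Nptxr (1.07 and 1.60) were those (edgeR adjusted p at most 0.00281), and Nptx2 was lower than in S100GFP+ cells (-2.37, adjusted p = 0.00216).

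Both genes of enzymes that edit glutamate receptor RNA, Adarb1 and Adar, were lower in PSCs, and their relative Adarb2 was higher. Adarb1 encodes ADAR2, which edits the Q/R site of Gria2, and it ranged from 6.83 to 19.7 CPM in PSCs, from 9.32 to 53.0 CPM in S100GFP+ cells and from 37.1 to 63.2 CPM in NG2DsRed+ cells. It was lower in PSCs by -0.87 (SE 0.26, edgeR adjusted p = 0.00686) and -1.78 (SE 0.25, adjusted p = 1.18e-06) on the log2 scale. Adar, which encodes ADAR1, was lower by -0.98 and -1.24 (edgeR adjusted p = 0.0184 and 0.00248). Adarb2, whose product ADAR3 binds RNA but has no known editing activity, was higher by 2.98 and 4.25 (edgeR adjusted p = 0.000413 and 3.44e-06), at a median of 7.37 CPM in PSCs, and the first of these was 3.74 without S100GFP+ library 22.

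Other glutamate receptor genes were mostly too low to test. Of 7 NMDA receptor genes 3 were tested, and Grin2b was lower in PSCs than in NG2DsRed+ cells (-2.16, edgeR adjusted p = 0.0317). NG2DsRed+ library 28 held 283 of the 699 Grin2b counts of its group, and without it the value was -1.49 (edgeR adjusted p = 0.132). The call was also lost on leaving out PSC library 20, 23, 31 or 34 or NG2DsRed+ library 35 (-1.88 to -2.05). The other values were 0.67 for Grin2b, -0.96 for Grin2d and 0.44 for Grin3a against S100GFP+ cells and -0.25 for Grin2d and 0.81 for Grin3a against NG2DsRed+ cells, and none of these 5 passed the threshold in edgeR (adjusted p at least 0.114). Grin2d passed without PSC library 36 (-1.51, edgeR adjusted p = 0.00778) and Grin3a without PSC library 18 (1.04, adjusted p = 0.0366). Both delta receptor genes failed the filter (0 of 2 tested). Of the 8 metabotropic genes, Grm5 (mGluR5) was the one tested, with a median of 4.54 CPM in PSCs, 0.364 CPM in S100GFP+ cells and 0 CPM in NG2DsRed+ cells, and it was higher in PSCs than in both (2.86 and 6.16, edgeR adjusted p = 0.00539 and 6.38e-06, with 3.68 for the first without S100GFP+ library 22 and 6.78 for the second without NG2DsRed+ library 7). Library 18 was the PSC library with no Grm5 count.

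**Figure D5:**
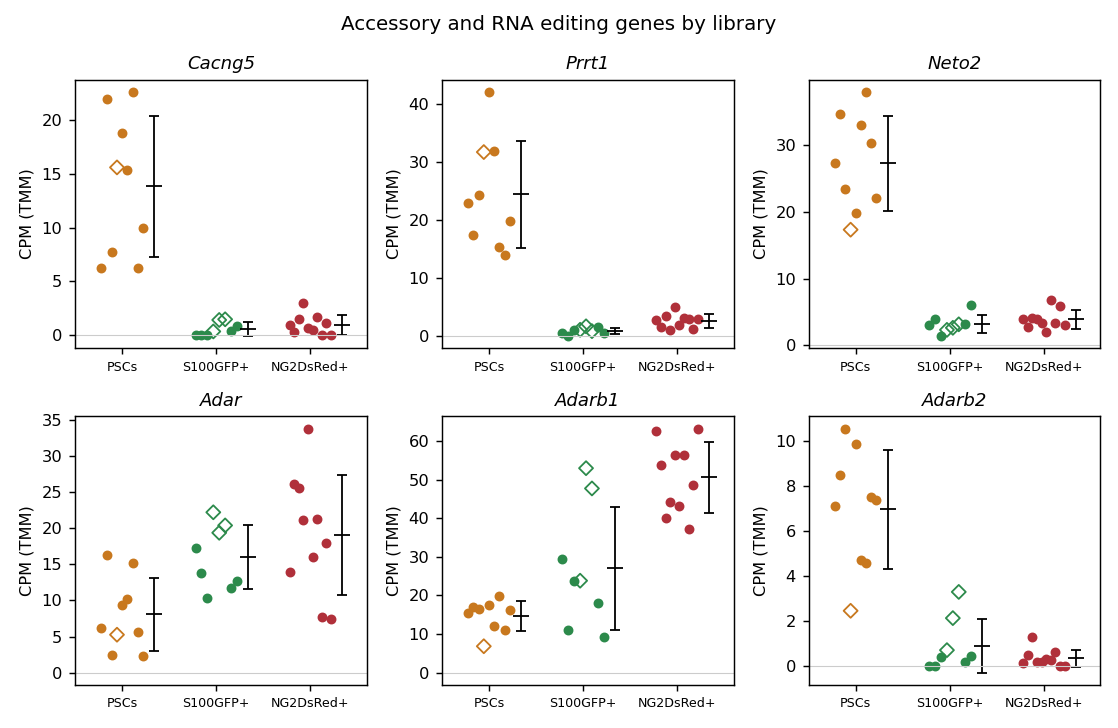
CPM (after TMM scaling, linear axes) of the accessory genes Cacng5, Prrt1 and Neto2 and of the editing genes Adar, Adarb1 and Adarb2 in each library, with symbols and bars (mean ± SD) as in the plot of the members by library. Cacng5, Prrt1 and Neto2 separate PSCs from all other libraries, and Adarb1, at 6.83 to 19.7 CPM in PSCs, overlaps with S100GFP+ but not with NG2DsRed+ cells.

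The promoters of Grik2, Gria4 and Grik3 are shown because Grik2 varied with the other two among PSC libraries (r of 0.79 with each without library 18, and 0.56 between Gria4 and Grik3). Gria3 also varied with Gria4 (0.86) and Grik2 (0.77) without library 18. It is not shown because no RefSeq promoter was found for it, nor for Gria1 and Grik1. Each line gives 250 bases before to 50 after the annotated start on the gene's strand, from RefSeq (GRCm38.p6), for Grik2 at chr10:49788705-49789004 and Gria4 at chr9:4796185-4796484 on the minus strand and Grik3 at chr4:125490446-125490745 on the plus strand. Capitals mark GGGCGG, the GC box, on either strand.
Grik2: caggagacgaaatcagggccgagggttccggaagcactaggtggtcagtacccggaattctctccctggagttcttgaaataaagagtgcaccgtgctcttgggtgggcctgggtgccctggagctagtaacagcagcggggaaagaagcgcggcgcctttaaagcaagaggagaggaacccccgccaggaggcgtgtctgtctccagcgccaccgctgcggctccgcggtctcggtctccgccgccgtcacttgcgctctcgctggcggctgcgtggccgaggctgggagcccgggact
Gria4: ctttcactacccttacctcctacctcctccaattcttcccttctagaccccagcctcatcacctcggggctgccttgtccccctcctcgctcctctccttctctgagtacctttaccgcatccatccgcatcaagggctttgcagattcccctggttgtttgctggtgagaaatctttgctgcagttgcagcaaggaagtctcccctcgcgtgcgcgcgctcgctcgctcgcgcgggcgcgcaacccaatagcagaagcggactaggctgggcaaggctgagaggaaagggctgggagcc
Grik3: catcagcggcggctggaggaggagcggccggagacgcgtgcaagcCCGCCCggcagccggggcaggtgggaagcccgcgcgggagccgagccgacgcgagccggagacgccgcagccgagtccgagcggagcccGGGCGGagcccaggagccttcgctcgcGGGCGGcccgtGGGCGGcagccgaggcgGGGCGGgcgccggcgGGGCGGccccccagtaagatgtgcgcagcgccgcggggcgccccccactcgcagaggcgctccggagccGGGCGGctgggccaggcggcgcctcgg
RefSeq promoters were found for 6 of the 9 members. Their GC content was 64.7% for Grik2, 59.7% for Gria4 and 82% for Grik3, and they held 26, 17 and 50 CG pairs, where the medians over 32851 promoters were 52.7% and 7. GGGCGG occurred 7 times in the Grik3 promoter, 2 times each in those of Grik4 and Grik5, and in 35.7% of all promoters. ACAAAG and ACAATG, letters that SOX factors are known to bind, occurred in none of the 6 promoters and in 18.7% and 12.6% of all (both strands, 300 bases). TATAAA was in none of them either (13.6% of all), and CANNTG occurred 1 time each in those of Gria2, Gria4, Grik2 and Grik3 (72.3% of all).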

How the data were processed

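RNA of sorted cells was amplified with a SMART-Seq v4 kit and sequenced. Per the labels and the study's methods, the authors used ea-utils and Btrim for trimming, HISAT2 for alignment to GRCm38 and HTSeq for counts per gene. Versions, annotation and strand setting were not given in the sources used here. The deposited values are whole-number counts per gene without normalization, between 5221655 and 9592875 per library. Without molecular identifiers, floors cover counting error only. The table has a column for 27 of the 36 labelled libraries (9 PSC, 8 S100GFP+, 10 NG2DsRed+), and the rest were not analysed here. The study's methods describe leaving out failed libraries by eye and keep fewer S100GFP+ replicates than the table holds. Which was left out is not given there, so an S100GFP+ library that the authors dropped may be in every S100GFP+ value. No columns of a cell type were identical, and each of 109 pairs differed by more than sampling noise (lowest chi-square over its degrees of freedom 8.1). Groups came from the labels. Each library came from 1 mouse, and the labels do not say whether libraries of different cell types came from the same mouse.

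Gene names, lengths and positions came from GENCODE M21, which holds 99.72% of the 52636 identifiers. Same-strand small RNA genes inside exons of Gria2, Gria3, Gria4 and Grik4 had 0 counts, and Grik2 has 6 genes in its introns that share 0 exonic bases with it. In R 4.3.3, edgeR 4.0.16 was run with TMM, filterByExpr (minimum count 10, 15330 genes kept), 1 quasi-likelihood fit of all libraries and Benjamini-Hochberg adjustment over all genes tested, called at 0.05. CPM are TMM-scaled, and log2 CPM used a prior count of 2 unless stated. CPM per kb used the union of a gene's exons. Shares were compared by exact permutation tests in SciPy 1.17.1. The scripts were tested on simulated counts. Alternatives were DESeq2 1.42.0, DESeq2 size factors, other filters, limma-voom (limma 3.58.1), fits of only the groups compared, handling of the counts on Lars2, Gm23935 and Gm15564 (3.64% to 40.0% of a library), an unadjusted p, and leaving out libraries (for genes other than the tested members, added after the data were seen).

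The rule for genes named beyond the 9 members takes, from each list of related genes, up to 4 called in a PSC comparison with the highest mean CPM in PSCs, and the 3 genes most correlated with each tested member. The members, lists and rule were chosen with earlier results of these data known, and 1 marker gene is not reported here. The study's comparisons, qPCR and imaging were not analysed here.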

Additional observations from a re-analysis of the deposited data

Results flagged for a closer look

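Of 27 sets of libraries (9 members in 3 cell types), 8 had a highest library whose gap to the next was above the 95% critical value of Dixon's test. That critical value assumes normally distributed values, while these CPM are bounded at 0 and often rest on few counts. How many sets chance alone would flag is therefore not known, and the 8 are listed as a description. Of these values 2 came from PSC library 18: Gria1 at 25.1 CPM (next 1.91) and Grik5 at 55.5 CPM (next 34.8). S100GFP+ library 22 gave 2 of them, Gria1 at 2.80 CPM (next 0.882) and Grik3 at 3.79 CPM (next 0.726), and S100GFP+ library 33 gave Grik5 at 24.2 CPM (next 12.7). NG2DsRed+ library 35 gave Gria2 at 0.970 CPM (next 0.463) and Grik4 at 2.43 CPM (next 0.650), and NG2DsRed+ library 28 gave Gria4 at 4.41 CPM (next 0.970). No cause of these values was tested.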

How the results depend on the processing

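No paired analysis was possible because each library number occurs once and the labels tie no libraries of different cell types to the same mouse. Apart from leaving out single libraries, the other settings gave 168 values of tested members that kept their direction and side of the threshold, 4 that became called, 1 that was lost and 3 that changed sign without being called, and the cause was not tested. Those that crossed the threshold were Grik4 in PSCs against S100GFP+ cells, called by limma-voom (2.28, adjusted p = 0.00314), in a fit of only these cell types (1.52, adjusted p = 0.0498) and without libraries 14, 17, 18 and 22 (2.25, adjusted p = 0.0255, added after the data were seen), and Gria3 (0.97, called, adjusted p = 0.0214) and Grik2 (1.61, lost) between S100GFP+ and NG2DsRed+ cells under limma-voom. The sign changes were all of Grik3 between S100GFP+ and NG2DsRed+ cells (0.62), at -0.67 under limma-voom, -0.78 without libraries 14, 17 and 22, -0.77 without library 18 as well, and -0.45 without library 22 alone (leaving out each library in turn gave -0.45 to 0.82). Without the filter, Gria1 in PSCs against S100GFP+ cells (2.43) turned to -0.30 without library 18, and S100GFP+ against NG2DsRed+ cells turned for Gria1 (0.35) to -0.78 without library 22, -1.69 without libraries 14, 17 and 22 and -1.70 without library 18 as well, and for Gria2 (1.93) to -0.58 and -0.57 in the latter fits, none of them called. Among related genes against NG2DsRed+ cells, leaving out each library in turn gave -0.77 to 0.02 for Grin2d (above 0 without NG2DsRed+ library 35) and -0.09 to 0.78 for Nptx2 (below 0 without PSC library 18), and neither was called where its sign turned. Limma-voom also gave larger values for Grik3 against S100GFP+ cells (3.85) and Gria4 against NG2DsRed+ cells (5.85 in PSCs). When a fit held just the pair of cell types, 1 member instead of 2 was called between S100GFP+ and NG2DsRed+ cells, and Grik2 was not fitted there. DESeq2 called 5, 8 and 3 members in the comparisons in the order given below. Without the filter, the genes called were 16556 instead of 7198 for PSCs against S100GFP+ cells and 10586 instead of 5099 for S100GFP+ against NG2DsRed+ cells, and the genes of related lists called were 30 instead of 18 and 22 instead of 11. The genes tested rose from 15330 to 44705 in every comparison. Those called higher in PSCs than in NG2DsRed+ cells went from 3197 to 3751, and those higher in S100GFP+ than in NG2DsRed+ cells from 2771 to 8194. S100GFP+ library 22 had counts on 38568 genes, and its part in this was not tested. Leaving out each library in turn gave 5 to 6, 6 to 6 and 2 to 3 members called, and 6825 to 7918, 6315 to 7412 and 4617 to 5940 genes, for PSCs against S100GFP+ cells, PSCs against NG2DsRed+ cells and S100GFP+ against NG2DsRed+ cells. Depth limits Gria1, Gria2 and Grik1, which had few counts in most libraries.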
